A study of Homo sapiens with 6 samples.

Results

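BST2, SAMD9 and 8 other genes that code for proteins acting against viruses were followed in HCT116 cells, a line derived from a human colorectal carcinoma. The 10 genes are BST2, LGALS3BP, PLSCR1, CMPK2, SAMHD1, SAMD9, SAMD9L, XAF1, EPSTI1 and IFI35, out of 19871 genes with a symbol in the deposited tables. They were selected by name because most of them were higher in GAS5 cells than in NC cells, so their values in that comparison describe how they were chosen and are not evidence about them. Strand-specific libraries of total RNA were sequenced in 3 groups of 2 libraries. NC was the negative control, which the labels list under the same siRNA heading as the other groups. GAS5 cells received a plasmid carrying the long non-coding RNA GAS5, and siYAP cells received siRNA against YAP, the transcriptional co-activator of the Hippo pathway. All groups are the same cell line grown in McCoy's 5a medium with 10% fetal bovine serum. The labels name no empty-vector control, so GAS5 RNA and transfection of a plasmid cannot be told apart, and the labels do not say which siRNA sequence was used.

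The authors deposited a mean of both libraries for each group. No spread between libraries could be computed, and no test was possible. The intervals below are 95% exact intervals of the ratio of counts over both libraries of each group, and they cover counting error only. The mean estimated counts per library summed to 25471771 in GAS5, 26243190 in siYAP and 27145310 in NC over genes with a symbol. YAP1, the target of the siRNA, had mean counts of 3480 in NC and 1444 in siYAP, a log2 fold change of -1.18. Its mean count in GAS5 was 2679 (-0.26). The YAP target genes CTGF and CYR61 were at log2 fold changes of 0.16 and 0.29 in siYAP, and of 0.72 and 1.09 in GAS5. Of 10 colon epithelial markers, 8 were at 1 FPKM (fragments scaled by transcript length and library size) or more in every group, while VIL1 and CEACAM5 were listed at 0 in NC. GAS5 itself is a long non-coding RNA and was not analysed here.

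Interferons are secreted proteins that cells release when they sense foreign nucleic acid. Through JAK kinases they activate transcription factors that, together with IRF9, bind the interferon-stimulated response element in the promoters of interferon-stimulated genes. Type II interferon acts mainly through the gamma-activated site. The proteins of interferon-stimulated genes block single steps of viral growth. Tetherin, the product of BST2, holds budding enveloped virions at the cell surface. SAMHD1 hydrolyses deoxynucleotides that reverse transcription needs, and CMPK2 phosphorylates pyrimidine nucleotides in mitochondria. SAMD9 and its paralog SAMD9L restrict poxviruses.

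Promoter sequences hold no expression values, but the share of the 10 genes that carry an element is not independent of how they were chosen. They were picked by name as antiviral genes, most of them higher in GAS5, so this share is described and was not tested. RefSeq promoters of build GRCh38.p14, covering 250 bases before to 50 bases after each start site, were available for all 10 genes. The response element was searched as GAAANNGAAA on both strands. It was present in 3.57% of 35116 promoters and, counted by gene, in 4.38% of 27305 genes, and 5 of the 10 genes carried it. Stretches upstream of the start site are shown for these 5 genes, 5′ to 3′ on the strand of the gene, with the element in capitals.
BST2, chr19:17405700-17405805, minus strand: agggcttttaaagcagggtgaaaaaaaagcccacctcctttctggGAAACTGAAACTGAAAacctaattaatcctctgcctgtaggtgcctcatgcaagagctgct
SAMD9, chr7:93118061-93118160, minus strand: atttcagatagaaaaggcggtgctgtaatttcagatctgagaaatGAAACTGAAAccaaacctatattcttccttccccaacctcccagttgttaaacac
LGALS3BP, chr17:78979927-78980026, minus strand: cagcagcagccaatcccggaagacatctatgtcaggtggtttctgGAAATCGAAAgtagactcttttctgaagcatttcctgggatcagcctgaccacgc
EPSTI1, chr13:42992242-42992336, minus strand: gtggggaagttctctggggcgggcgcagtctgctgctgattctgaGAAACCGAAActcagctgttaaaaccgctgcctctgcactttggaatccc
PLSCR1, chr3:146544632-146544731, minus strand: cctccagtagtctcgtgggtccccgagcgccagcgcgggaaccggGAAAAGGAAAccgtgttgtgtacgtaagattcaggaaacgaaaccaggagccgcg
In BST2 the element occurred in 2 overlapping copies, which began 130 and 124 bases before the start site. The single copies began 136 bases before the start site in SAMD9, 58 in LGALS3BP, 50 in EPSTI1 and 79 from the nearer start site of PLSCR1. The letters did not occur in the window in CMPK2, SAMHD1, SAMD9L, XAF1 or IFI35. In a list of 51 other interferon-stimulated genes, 41 had a promoter in the table and 30 of these carried the element (73.2%). None of 19 matched genes of deoxynucleotide metabolism, out of 20 listed, carried it. Of 25 other restriction factors 14 had a promoter in the table, too few for a share of that list, and 4 of the 14 carried the element.

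The gamma-activated site, searched as TTCNNNGAA, was found in 4 of the 10 genes (BST2, EPSTI1, PLSCR1 and IFI35) and in 7.66% of all promoters, or 9.38% counted by gene. Among the other interferon-stimulated genes 10 of 41 carried it (24.4%), and among the restriction factors 4 of 14. In BST2 a gamma-activated site began 136 bases before the start site and ran into the response element. EPSTI1 had the same arrangement, with a gamma-activated site from base 56 and a response element from base 50 before the start. CATTCC, the site of the TEAD factors that carry YAP to DNA, was found in IFI35 alone among the 10 genes and in 14.0% of all promoters, or 16.7% counted by gene. These matches describe letters in a window and are not shown to be bound.

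In GAS5 cells the 8 genes that passed edgeR's filter on low counts (minimum 10) were all higher than in NC, and 6 of them were at least 2-fold higher. The lowest of the 8 in NC was EPSTI1 at 13.0 mean counts, above the filter's limit there, so none passed through its GAS5 value only. The threshold of 2-fold was applied to gene counts scaled to NC, after adding 2 counts to each group. At that threshold 2.20% of 13379 genes were higher in GAS5, but the 10 genes were selected on this comparison. The median log2 fold change of the 8 genes was 1.58, against 0.00 over all genes. In siYAP cells none of the same 8 genes was 2-fold higher or lower, against 1.06% of 13308 genes higher and 1.22% lower. Their median in siYAP was 0.07 and their range -0.28 to 0.26. SAMD9L and XAF1 had too few counts to pass the filter in either comparison. Both comparisons use the same NC values. In these bulk samples fewer cells with a transcript and less RNA per cell cannot be told apart.

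**Figure D1:**
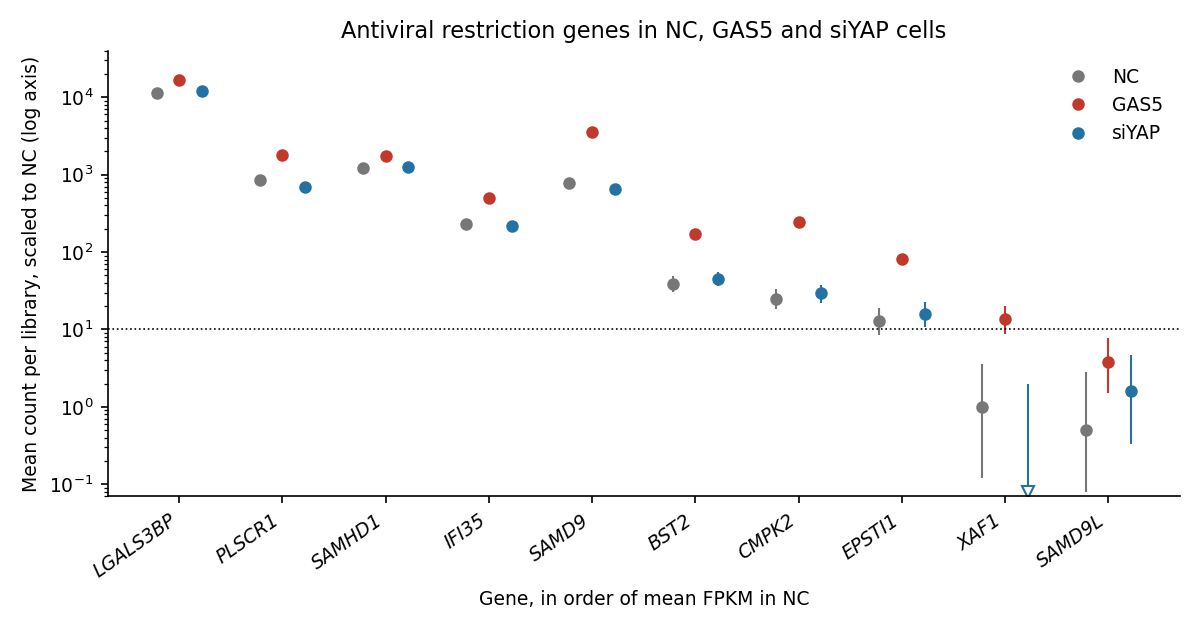
Authors' mean counts per library of the 10 genes, scaled to NC, on a log axis; vertical lines are 95% exact counting intervals, the dotted line marks 10 counts and the open triangle a gene listed at 0. GAS5 lies above NC and siYAP in every gene, with intervals that overlap those of NC and siYAP in SAMD9L, and NC and siYAP lie close together in the 8 genes above the line.

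The genes that act on the virion and the membrane had low to very high levels. BST2 had mean counts of 39 in NC, 156.5 in GAS5 and 42.5 in siYAP. Only GAS5 stood apart from the other 2 groups, with a log2 fold change of 2.07 (interval 1.76 to 2.50) against NC. In siYAP the log2 fold change of BST2 was 0.20 (interval -0.25 to 0.67), an interval that includes 0. BST2 ranked 85th of 13379 genes in GAS5 against NC, yet its summed mean FPKM of 5.89 in GAS5 was still a moderate level, above that of 47.2% of the genes detected in that group.

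LGALS3BP codes for a secreted glycoprotein that binds galectin-3, the product of LGALS3. It was by far the most abundant of the 10 genes, with a mean FPKM of 213 in NC, 316 in GAS5 and 222 in siYAP. Its mean counts were 11234, 15460.5 and 11335 in the same order. The log2 fold change in GAS5 was 0.58 (interval 0.55 to 0.60), under the 2-fold threshold although counting error was small. In siYAP it was 0.10 (interval 0.07 to 0.13). LGALS3 itself was at -0.22 in GAS5 and 0.53 in siYAP.

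PLSCR1, a membrane protein of the phospholipid scramblase family that is induced by interferon, had mean counts of 844 in NC, 1634 in GAS5 and 655.5 in siYAP. Its log2 fold change was 1.07 (interval 0.99 to 1.16) in GAS5, just past the threshold, which lay within the interval. In siYAP it was -0.28 (interval -0.38 to -0.17), but the transcripts summed moved this value by more than 1.5 times, to -0.47 with the most abundant transcript and -0.11 with Ensembl transcripts. Of its paralogs with enough counts, PLSCR3 was at -0.09 and PLSCR4 at -0.27 in GAS5.

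The genes of nucleotide metabolism differed widely from each other. CMPK2 had the highest fold change of the 8 genes, with mean counts of 25 in NC, 225.5 in GAS5 and 27.5 in siYAP. Its log2 fold change in GAS5 was 3.19 (interval 2.87 to 3.74), which ranked 28th of all genes. In siYAP it was 0.21 (interval -0.36 to 0.81). The related cytosolic kinase CMPK1 was at -0.10 in GAS5.

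SAMHD1 had the smallest fold change of the 8 genes in GAS5. Its mean counts were 1227.5 in NC, 1626.5 in GAS5 and 1195 in siYAP. On the log2 scale GAS5 was 0.52 above NC (interval 0.45 to 0.60), and siYAP was at 0.05 (interval -0.04 to 0.13). Among 20 other genes that make or break down deoxynucleotides, none passed 2-fold in GAS5 or in siYAP. This is near the shares over all genes, 2.20% higher in GAS5, and 1.06% higher and 1.22% lower in siYAP. The median of the 20 in GAS5 was 0.19. The highest were PNP at 0.43, TK1 at 0.37 and TYMP at 0.37, and the lowest were RRM2B at -0.27 and TK2 at -0.10.

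The paralogs SAMD9 and SAMD9L lie side by side on chromosome 7, in the same orientation and 12031 bases apart (SAMD9 at chr7:93099513-93118023 and SAMD9L at chr7:93130055-93148369, GENCODE 29 on GRCh38). SAMD9 had mean counts of 783 in NC, 3254 in GAS5 and 622.5 in siYAP. Against NC, GAS5 was higher by 2.17 on the log2 scale (interval 2.09 to 2.25), and the value in siYAP was -0.24 (interval -0.35 to -0.14). SAMD9 thus moved up in the order of levels, from 4.34 FPKM in NC, well under the 13.3 of SAMHD1, to 18.6 in GAS5, beside 18.9 for SAMHD1.

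SAMD9L was close to the limit of detection. Its mean counts were 0.5 in NC, 3.5 in GAS5 and 1.5 in siYAP, which are 1, 7 and 3 counts over both libraries. The scaled ratio of GAS5 to NC was 7.60 with a counting interval of 0.976 to 342, so a difference was not detectable at this depth. The pair shared no stretch of 50 bases between their main transcripts.

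The genes of cell death and protein partners were low, apart from IFI35. XAF1, an antagonist of the apoptosis inhibitor XIAP, had mean counts of 1 in NC, 12.5 in GAS5 and 0 in siYAP. Scaled, the ratio of GAS5 to NC was 13.6 (counting interval 3.38 to 118), an interval above 1. In siYAP no read was counted. With 3 counts over the group as the floor for siYAP, GAS5 was at least 8.52-fold higher, and the lower limit of the exact interval, which also covers the counting error of GAS5, was 6.43-fold. XIAP was at -0.20 in GAS5.

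EPSTI1, an interferon-stimulated gene also described in epithelial cells in contact with stroma, had mean counts of 13.0 in NC, 74 in GAS5 and 15 in siYAP. Its log2 fold change was 2.46 (interval 2.02 to 3.29) in GAS5 and 0.26 (interval -0.51 to 1.11) in siYAP. IFI35 had mean counts of 232.5, 459.5 and 202.5 in NC, GAS5 and siYAP. Its log2 fold change was 1.09 (interval 0.94 to 1.27, which also holds the threshold) in GAS5 and -0.11 (interval -0.31 to 0.08) in siYAP. NMI, which forms a complex with IFI35, was at 0.85 in GAS5 and -0.09 in siYAP, with mean counts of 130.5, 217.5 and 115.5 in the 3 groups.

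The order of the levels was nearly the same in the 3 groups. By mean FPKM it ran LGALS3BP, PLSCR1, SAMHD1, IFI35, SAMD9, BST2, CMPK2, EPSTI1, XAF1 and SAMD9L in NC. In GAS5, SAMD9 (18.6) passed IFI35 (14.3), and in siYAP the order of XAF1 (listed at 0) and SAMD9L (0.01) was exchanged. LGALS3BP, PLSCR1 and SAMHD1, the 3 highest in NC, had log2 fold changes in GAS5 of 0.58, 1.07 and 0.52. BST2, CMPK2 and EPSTI1, at 1.38, 0.32 and 0.17 FPKM in NC, had log2 fold changes above 2. SAMD9 was also above 2 from a higher level. NC gives both the level and the denominator, and the genes were selected on this comparison, so a relation of level and fold change was not tested. No spread is known, so it was not tested which neighbours in the order of levels differ.

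The distribution of all genes shows the place of the 8 genes in each comparison. In siYAP 5 of them were above 0 and 3 below. The counting interval lay above 0 for LGALS3BP, below 0 for SAMD9 and PLSCR1 and included 0 for the other 5. When GAS5 was set directly against siYAP, 6 of 8 were at least 2-fold higher in GAS5, with a median log2 fold change of 1.61, against 2.86% of 13476 genes. This comparison leaves NC out but keeps the GAS5 values on which the genes were selected.

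**Figure D2:**
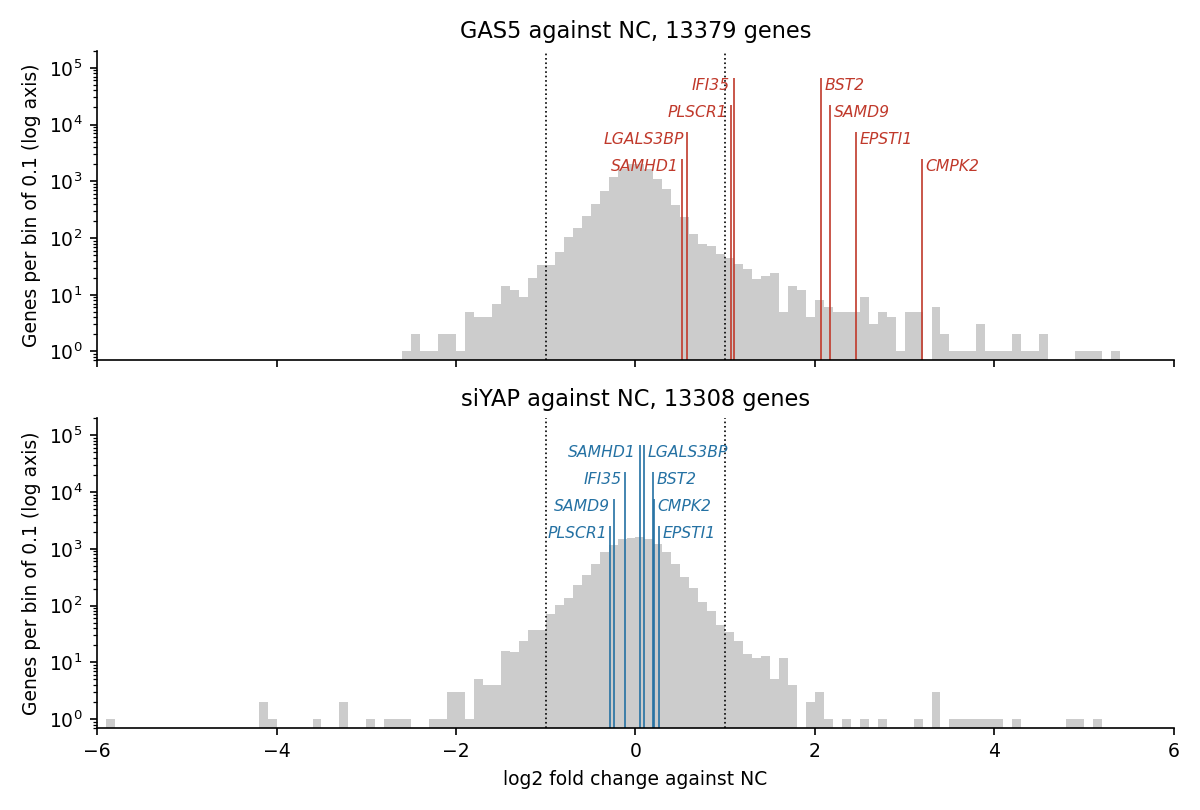
Histograms of log2 fold changes against NC over 13379 genes in GAS5 (top) and 13308 in siYAP (bottom), with the number of genes on a log axis, dotted lines at 2-fold and a labelled line for each of the 8 genes. In GAS5 the lines run from 0.52 to 3.19 and 6 lie to the right of the 2-fold line, whereas in siYAP they lie between -0.28 and 0.26.

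Other interferon-stimulated genes, listed by name with earlier results of these data known, were set beside them. Of 51 genes, 48 had enough counts in GAS5 against NC. Of these, 31 were at least 2-fold higher (64.6%, against 2.20% of 13379 genes) and none 2-fold lower. Their median log2 fold change was 1.44. IFI44, IFI44L, OAS2 and RSAD2 had fewer than 10 mean counts in NC and passed the filter through their GAS5 values, so they had to be higher. Of the 44 genes with 10 or more mean counts in NC, 27 were at least 2-fold higher. The 27 include IFI27, whose 10 mean counts in NC lay just under the filter's limit, so it too passed through its GAS5 value. The highest were OAS1 (4.93), which makes the messenger that activates RNase L, IFI27 (4.21) and IFI44 (4.02). Both IFI27 and IFI44 entered through their GAS5 values. OAS1 had mean counts of 21 in NC, 644.5 in GAS5 and 22 in siYAP. At the other end were ISG20 (0.19) and PSMB8 (-0.15), the only one of the 48 below 0. In siYAP, 44 had enough counts and none passed 2-fold. This is near the shares over all genes, 1.06% of 13308 higher and 1.22% lower. The median of the 44 in siYAP was -0.02.

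Genes of interferon signalling were also listed. The transcription factors IRF7 (2.32) and IRF9 (1.44) were at least 2-fold higher in GAS5. IRF7 had mean counts of 300.0 in NC, 1385.5 in GAS5 and 351.5 in siYAP, and IRF9 had 470.0, 1177 and 526.5. Lowest were the receptor subunit IFNGR1 (-0.17) and the kinase JAK1 (-0.32). SOCS1, an inhibitor of JAK kinases, was past 2-fold in siYAP (1.25) and at 0.79 in GAS5. Its mean counts were 63 in NC, 102 in GAS5 and 143.5 in siYAP. IRF7 and IRF9 were at 0.31 and 0.25 in siYAP.

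Restriction factors outside the interferon-stimulated list, also listed with earlier results of these data known, were mostly near 0 in GAS5. Of 25 listed, 17 had enough counts, and GBP3 (1.14) was the one at least 2-fold higher (5.88%, against 2.20% of 13379 genes). Its mean counts of 10 in NC and 22.5 in GAS5 were low. As 10 counts in NC lay just under the filter's limit, GBP3 passed the filter through its GAS5 value. ZC3HAV1, which codes for the zinc-finger antiviral protein, was at 0.80 and APOBEC3D, a cytidine deaminase, at 0.75. SERINC5 and SERINC3, whose proteins reduce the infectivity of HIV particles, were the lowest at -0.39 and -0.31. The median was 0.04.

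Of 14 partners and paralogs of the 10 genes, 12 had enough counts in GAS5. RSAD2 was the one past 2-fold, at 3.14, against 2.20% of 13379 genes higher. RSAD2 codes for viperin, which converts a nucleotide that CMPK2 helps to supply into a chain terminator of viral RNA synthesis. Its mean counts were 1 in NC, 22.5 in GAS5 and 1.5 in siYAP, so it passed the filter through its GAS5 value. None of the 11 genes with 10 or more mean counts in NC was 2-fold higher. The next were NMI (0.85) and BIRC3 (0.47), and the lowest were NCOA7 (-0.55) and PLSCR4 (-0.27). The median of the 12 was -0.10.

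**Figure D3:**
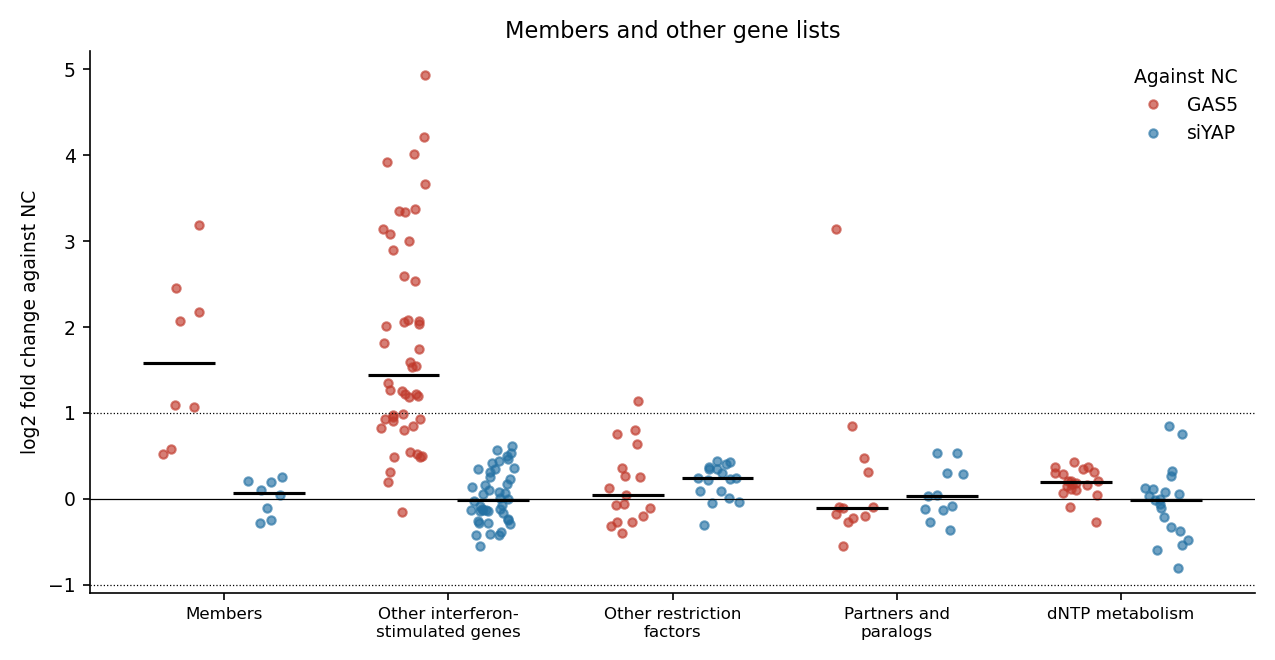
Log2 fold changes against NC of the genes with enough counts in 5 lists, all chosen with earlier results known, in GAS5 (red) and siYAP (blue). Each point is a gene, black bars are medians and dotted lines mark 2-fold. In GAS5 the medians of the 10 genes, shown as members (1.58), and of the other interferon-stimulated genes (1.44) lie above the 2-fold line and those of the other lists between -0.10 and 0.19.

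Immune cell markers were at or near 0. Of 8 markers none reached 1 FPKM, and PTPRC, NKG7 and MS4A1 were listed at 0 in all 3 groups. Summed over the list, FPKM came to 0.305 in NC, 0.26 in siYAP and 1.00 in GAS5. CD14 accounted for most of the GAS5 value, with mean counts of 4.5 in NC, 37.5 in GAS5 and 3 in siYAP. Of 8 stromal markers, 2 reached 1 FPKM, DCN and LUM were listed at 0 in all groups, and the list summed to 7.79 FPKM in NC, 13.2 in siYAP and 11.9 in GAS5.

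The gene sums rest on 49 transcripts, of which 9 were assembled from the reads and have no Ensembl identifier. Of the 49, 22 had enough counts in GAS5 against NC, and 10 of these were at least 2-fold higher, against 10.7% of 41125 transcripts. Of the 10, 3 had fewer than 10 mean counts in NC and passed the filter through their GAS5 values, 2 of them listed at 0 in NC. Of the 19 transcripts with 10 or more in NC, 7 were at least 2-fold higher. None was 2-fold lower and all 22 were above 0. The division of a gene's reads among its transcripts is an estimate of the counting program, and the 8 transcripts listed at 0 in all groups include 6 of the 8 of SAMD9L. BST2 had a single listed transcript, ENST00000252593, with 5 exons and 1019 bases.

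SAMD9 reads were assigned mainly to ENST00000379958, with mean counts of 732 in NC, 3066 in GAS5 and 543 in siYAP. This transcript held 93.5%, 94.2% and 87.3% of the gene count. A shorter form, ENST00000446617, was at 50.8, 86.1 and 79.1 in the same order, so it made up a larger share in siYAP (12.7%) than in NC (6.49%). ENST00000620985 was listed at 0 in NC and siYAP and at 101.5 in GAS5.

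EPSTI1 counts were assigned to different transcripts in the 3 groups. In NC, 76.7% of its counts lay in assembled models, led by TCONS_00037463 with 38.5%. In GAS5 none did, and ENST00000313624 held 91.2%. That transcript was listed at 0 in NC, 67.5 in GAS5 and 10.5 in siYAP, where it held 70.0%. Since NC had 26 counts over both libraries, the shares in NC rest on few reads.

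In LGALS3BP and PLSCR1 the shares were steadier. The assembled model TCONS_00064442 held 75.2%, 74.3% and 74.4% of the LGALS3BP count in NC, GAS5 and siYAP, with mean counts of 8450, 11487 and 8429. The minor model TCONS_00064440 was at 6.62, 58.6 and 3.16. It was the one LGALS3BP transcript past 2-fold, and it passed the filter through its GAS5 value. For PLSCR1, TCONS_00104824 held 52.2% in NC and GAS5 and 46.2% in siYAP. Its mean counts were 440.6, 853.4 and 302.7.

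The remaining genes had few forms. Both transcripts of IFI35 were higher in GAS5, ENST00000438323 with mean counts of 173.8 in NC and 321.3 in GAS5 and ENST00000415816 with 58.7 and 138.2. SAMHD1 was divided between ENST00000262878, at 825, 1087 and 732, and the assembled TCONS_00090941, at 403, 539 and 463. The log2 fold changes of this pair in GAS5 were alike, 0.51 and 0.53, and in siYAP they had opposite signs, -0.06 and 0.31. XAF1 counts in GAS5 were spread over TCONS_00056087 (5.82), ENST00000361842 (3.28) and ENST00000346752 (3.18), and the last 2 were listed at 0 in NC.

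**Figure D4:**
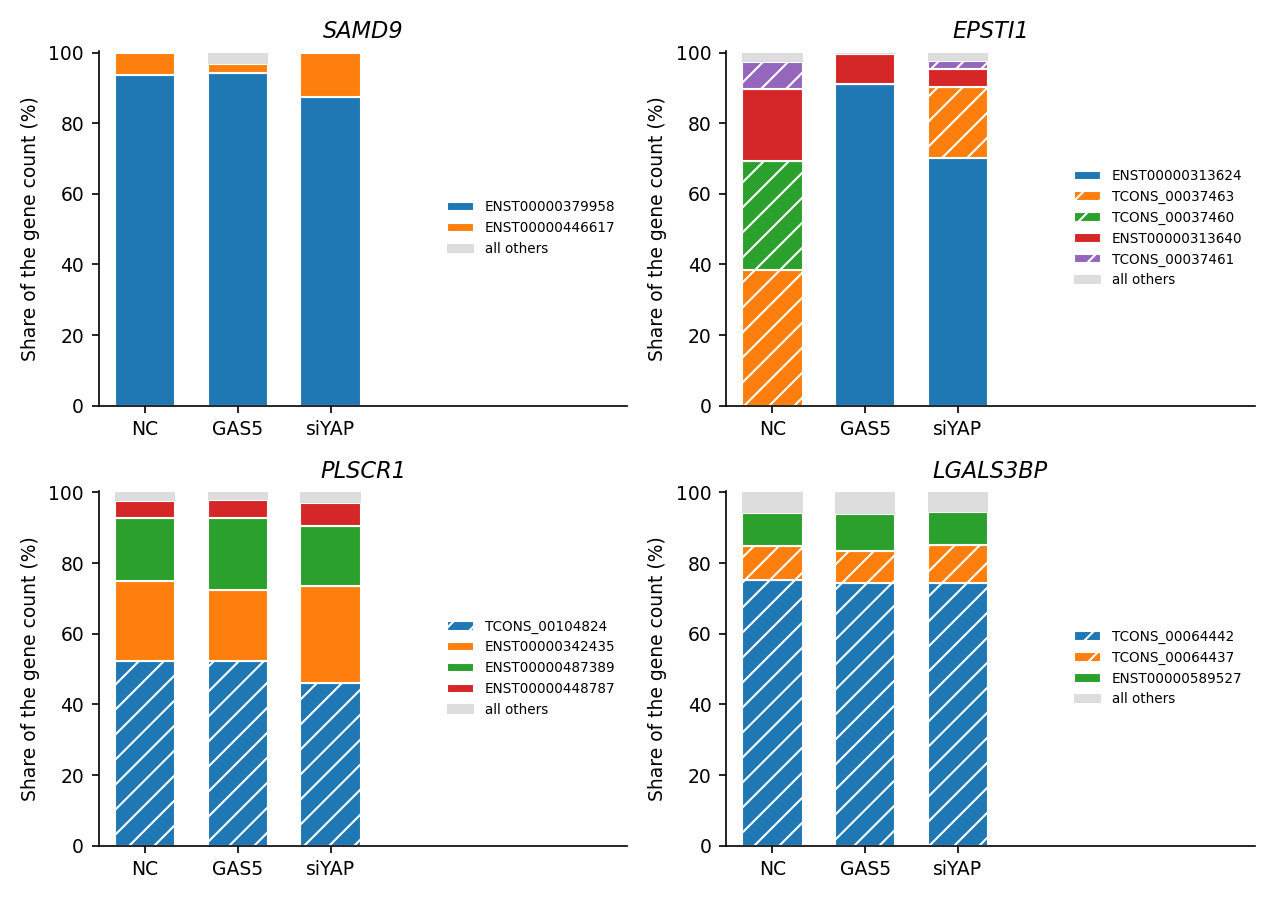
Shares of the gene count of SAMD9, EPSTI1, PLSCR1 and LGALS3BP held by each transcript in NC, GAS5 and siYAP, in percent; hatched bars are models assembled from the reads and grey bars all other transcripts. EPSTI1 goes from assembled models in NC (76.7%) to ENST00000313624 in GAS5 (91.2%), while TCONS_00064442 holds about the same share of LGALS3BP in each group.

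The genes next to the 10 genes were compared to see whether the higher counts in GAS5 extended along the chromosome. Of 18 adjoining protein-coding genes, 9 had enough counts in GAS5 against NC. RSAD2 was at least 2-fold higher, against 2.20% of 13379 genes, but with 1 mean count in NC it passed the filter through its GAS5 value. The other 8 lay between -0.21 and 0.23, with a median of -0.01 over the 9. MVB12A, which starts 73 bases from BST2 on the other strand, had a log2 fold change of -0.01. VAT1, 148 bases from IFI35, was at -0.16, and RPL27 on its other side at 0.13. CDK6 beside SAMD9 was at -0.06, DNAJC15 beside EPSTI1 at -0.21, RBL1 beside SAMHD1 at 0.23 and CANT1 beside LGALS3BP at 0.11. CEP295NL, the other neighbour of LGALS3BP, was at -0.10 in GAS5 and at -1.47 in siYAP, from 31.5 mean counts in NC.

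RSAD2 overlaps CMPK2 on the opposite strand, head to head on chromosome 2, with CMPK2 at chr2:6840570-6866635. They share 14 exonic bases, 0.325% of those of CMPK2. TLDC2 shares 10.3% of the exonic bases of SAMHD1 and PRAL 38.3% of those of XAF1, both on the opposite strand. The libraries mark strand, but the strand setting of the counting is not given in the sources used here. TLDC2 itself had 1.5 mean counts in NC, against 1227.5 for SAMHD1. For 8 of the 10 genes every 50-base stretch of the main Ensembl transcript occurred in no other gene, and for SAMHD1 and XAF1 the share was 99.95% and 99.7%. Assembled models were not searched, and in NC they held 84.9% of the LGALS3BP count and 52.2% of the PLSCR1 count. The EPSTI1 transcript searched was listed at 0 in NC.

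**Figure D5:**
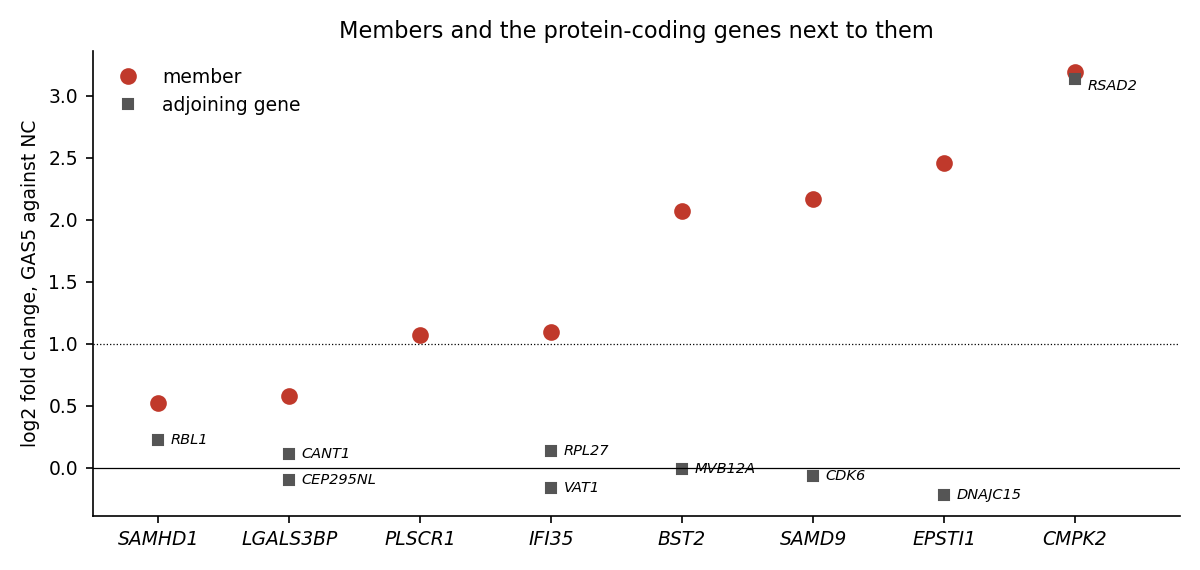
Log2 fold changes in GAS5 against NC of 8 of the 10 genes (red circles) and of the adjoining protein-coding genes with enough counts (grey squares); the dotted line marks 2-fold. RSAD2, which passed the filter through its GAS5 value, lies beside CMPK2 near 3, and the other 8 adjoining genes lie between -0.21 and 0.23.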

How the data were processed

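LncRNA libraries of HCT116 cells (3 groups of 2) were sequenced, and the submitters' processing notes name TopHat2 2.1.1. The counting program, genome build and annotation are not given in the sources used here. The deposited tables hold expected counts (estimated counts) and FPKM of 92866 mRNA transcripts, which the authors averaged over each group, with an FPKM of 0 written as 0.001. They also hold the authors' log2 fold changes, p-values, FDR and a significance mark, which were not used.

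Counts were summed by upper-case symbol of the siYAP table, without the 339 transcripts that have none (at most 0.224% of counts). Doubled sums of the 10 genes were whole within 0.05 in all 30 cases, so Clopper-Pearson intervals (scipy 1.17.1) were computed on them, without the added counts. They cover counting error only. filterByExpr (minimum count 10) and TMM of edgeR 4.0.16 were applied to each pair of group sums, a prior count of 2 was added for log2 fold changes, and genes past 2-fold were counted. The planned edgeR quasi-likelihood test needs single libraries and was not run. Steps were tested on simulated data. Size factors of DESeq2 1.42.0 served as an alternative. Python 3.11.15, pandas 2.3.3, matplotlib 3.10.9 and R 4.3.3 were used. Positions come from GENCODE 29 on GRCh38, and promoters from RefSeq on GRCh38.p14, where older symbols were matched through RefSeq synonyms.

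The 10 genes and all lists were chosen with earlier results of these data known. Named genes were the 10, the 3 highest and 2 lowest of each further list in GAS5 against NC, adjoining genes, and fixed partners. The YAP list was an exception, from which YAP1, CTGF and CYR61 were named as the check of the knockdown. SOCS1, PLSCR3, PRAL, IFI44L, OAS2 and the cell type markers were named after their values were seen. A gene of the interferon signalling list, and counts over that list, are not reported here.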

Additional observations from a re-analysis of the deposited data

How the results depend on the processing

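The counts of genes past 2-fold among the 10 genes in each comparison, and among the other interferon-stimulated genes in GAS5 against NC, stayed within 1.5 times their values under all 9 alternatives (DESeq2 size factors, total counts, no filter, prior counts of 0.5 and 10, mean FPKM with 0.1 added, transcripts above 0 in all groups, the most abundant transcript, and Ensembl transcripts, the last added after the data were seen). In GAS5 against NC 5 to 8 of the 10 genes passed. Without the filter SAMD9L and XAF1 were included, and EPSTI1 left when transcripts above 0 in all groups were required. For single transcripts, dropping the filter gave 16 past 2-fold in place of 10, as more transcripts entered. Of 211 recomputed values of the 8 genes, 186 stayed within the counting interval of the reported value and none crossed the 2-fold threshold. SAMHD1 in siYAP changed sign, to -0.10 with its most abundant transcript and -0.09 with Ensembl transcripts. EPSTI1 in GAS5 went to 5.24 with its most abundant transcript, which was listed at 0 in NC, and IFI35 to 1.00. In siYAP the most abundant transcript gave -0.47 for PLSCR1, -0.36 for SAMD9 and -0.31 for IFI35, and Ensembl transcripts gave -0.11 for PLSCR1, so the order of these genes in siYAP depends on the transcripts summed. No paired analysis was possible because only group means are held in these tables, and for the same reason the replicate block, leaving out libraries and the DESeq2 test were not run. Depth limits SAMD9L and XAF1, and the spread between cultures is unknown for every value.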
